A study of Mus musculus with 4 samples.

Results

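Cartilage cells of Sox9 mutant mice were compared between postnatal day 19 and postnatal day 13. The cells came from tibial and femoral epiphyses, the bone ends that hold articular cartilage, growth plate and marrow. The mutants had the genotype Sox9fl:fl AcanCreERT2/+, that is, loxP-flanked Sox9 alleles and a tamoxifen-dependent Cre recombinase expressed from Acan, the aggrecan gene of cartilage cells. Deletion is therefore limited to cells that used Acan when tamoxifen was given and to their descendants. Wild-type epiphyses of the same ages were the reference. The labels do not state when tamoxifen was given, which exons were floxed or how many mice went into each library. The design line deposited with the series gives another age and lists one more genotype, and the groups here follow the labels of the samples. Each genotype and age is 1 single-cell library, so no spread between mice can be given and no test was made. The intervals below cover counting error only.

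The members are cell barcodes, each standing for about 1 captured cell, of the 2 mutant libraries. A barcode was kept when it had 500 or more detected genes, at most 15% mitochondrial molecules, no molecule of Ptprc (the CD45 antigen of blood cells) and at least 100 molecules of Col2a1 (collagen II, the main collagen of cartilage) per 10000. A molecule here is a unique molecular identifier (UMI). The rule kept 2599 barcodes at day 13 and 2252 at day 19, which is 4851 of the 39898 barcodes in all 4 libraries. The same rule kept 4541 and 1088 wild-type barcodes. Kept barcodes were 35.0% of the day 13 mutant barcodes that met the gene and mitochondrial limits and 22.7% of those at day 19. Levels are UMIs summed over the kept barcodes of a library and given as counts per 1000000 UMIs (CPM). In these summed levels, fewer cells of a kind and less RNA per cell cannot be told apart.

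Sox9 is the transcription factor that sets and holds the chondrocyte state. With its partners Sox5 and Sox6 it binds enhancers of genes such as Col2a1 and Acan, and chondrocytes then secrete a matrix of collagen II and sulfated proteoglycans. In the growth plate, chondrocytes pass from a resting to a dividing and then to a hypertrophic state, in which Col10a1 and later Ibsp, Spp1 and Mmp13 are made. In young mice, growth slows and secondary ossification centres form inside the epiphyses in these weeks.

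The kept mutant barcodes carried cartilage RNA at both ages. Summed over 7 chondrocyte markers other than the Col2a1 that the rule used, the level was 9274 CPM at day 13 and 10252 CPM at day 19. In blood reference barcodes of the same libraries (at least 1 Ptprc UMI and Col2a1 under 100 per 10000) it was 731 and 491 CPM. Col1a1, the collagen of bone and fibrous tissue, exceeded Col2a1 in 243 kept barcodes (9.35%) at day 13 and in 120 (5.33%) at day 19. Median depth of the kept barcodes was 11539 and 10066 UMIs in mutants, and 11618 and 16722.5 UMIs in wild type. The mutant blood reference barcodes, 1109 and 2659 in number, had medians of 3999 and 3606 UMIs. The mutant libraries shared 44 barcode sequences, 3 of them kept on both sides, against 19 to 24 in the other pairs of libraries.

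RNA of blood cells moved with age in both genotypes. All 5 measured erythroid markers and all 5 measured neutrophil markers were 2-fold or more higher at day 19 in the kept mutant barcodes. Of all measured genes, 0.576% were 2-fold or more higher. The summed erythroid level was 1845 and 7571 CPM at days 13 and 19 in mutants and 3746 and 14611 CPM in wild type. The summed neutrophil level was 282 and 847 CPM in mutants and 92.0 and 271 CPM in wild type. In the blood reference barcodes of the mutants it was 63315 and 101723 CPM. Of the 2 measured macrophage markers and the 3 of B cells none reached 2-fold, but all were above day 13, with median log2 ratios of 0.83 and 0.85. Their summed levels were 31.2 and 53.2 CPM for macrophages and 54.2 and 85.8 CPM for B cells, against 6044 and 6129 CPM and 2014 and 1905 CPM in the blood reference. The 5 fibroblast and tendon markers were all below day 13, none by 2-fold, with a median of -0.39 (-0.74 in the blood reference barcodes). The only measured endothelial marker gave -0.04 and the only pericyte marker 0.54. The levels of T cell, mast cell, skeletal muscle, Schwann cell and fat cell markers summed to between 0.490 and 2.71 CPM. The part of free RNA from other cells in the ratios below was not tested, and the level in the blood reference barcodes is given beside the genes it touches most.

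Sox9 itself differed little with age in the mutants. Its level was 199 CPM at day 13 and 178 CPM at day 19 in mutants, and 356 and 450 CPM in wild type. The log2 ratio of day 19 to day 13 was -0.16 in mutants (95% interval -0.21 to -0.10) and 0.34 in wild type. After each barcode was thinned to 2000 UMIs, at least 1 Sox9 UMI was found in 31.7% of mutant barcodes at day 13 and 29.0% at day 19, against 5.28% and 2.86% of blood reference barcodes. In wild type those shares were 44.2% and 54.6%. Unthinned, the shares were 77.7% and 71.9% in mutants and 83.7% and 93.4% in wild type. Sox9 lies on chromosome 11 at 112782224 to 112787760 (plus strand, GRCm38). The reads are 3′ tags, which may lie outside the deleted part, so these levels are no check of the labels or of how much was deleted.

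The partners of Sox9 also stayed within a narrow range. Sox5 was 119 and 128 CPM at days 13 and 19 in mutants, and Sox6 was 102 and 92.7 CPM. Sox8, a close relative of Sox9, was 12 and 13.1 CPM, with an interval of the log2 ratio from -0.10 to 0.33. Sox4 was 133 and 87.0 CPM (log2 -0.61), but it was higher in the blood reference barcodes, at 247 and 234 CPM. No gene of the 6 SOX factors listed reached 2-fold.

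Over all genes, few levels differed by 2-fold between the ages in mutants. Of 7291 genes at 10 CPM or more in at least 1 mutant library, 42 (0.576%) were 2-fold or more higher at day 19 and 15 (0.206%) were 2-fold or more lower. Together these are 57 genes, or 0.782%. Of the 42 higher genes, 27 had a level in the blood reference barcodes as high as that in the kept barcodes in at least 1 mutant library, and of the 15 lower genes 6 did. The share of all 7291 genes with such a level was not counted, so both counts only describe the called genes. In wild type, 142 of 6915 genes (2.05%) were 2-fold or more higher at day 19 and 37 (0.535%) were 2-fold or more lower, 179 (2.59%) in all. At a lower threshold of 1.5-fold, added after seeing the data, 113 genes (1.55%) were higher and 69 (0.946%) lower in mutants, 182 (2.5%) in all. The median log2 ratio of all measured genes was -0.02 in mutants and 0.13 in wild type.

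**Figure D1:**
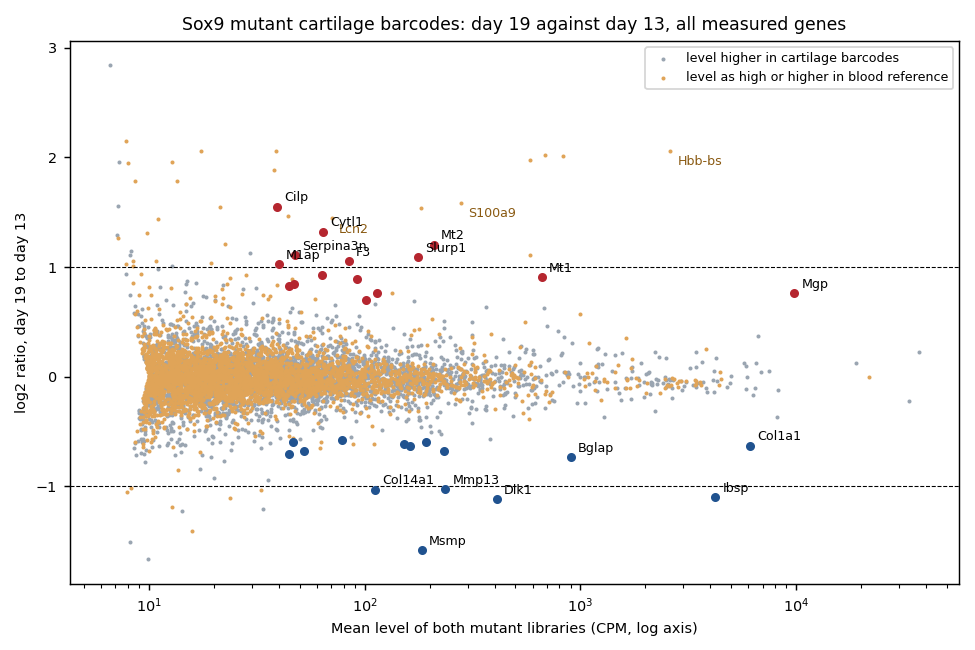
Log2 ratio of day 19 to day 13 (vertical axis) against mean level in CPM (horizontal log axis) for the 7291 measured genes of the kept mutant barcodes, each point 1 gene, with dashed lines at 2-fold. Red and blue points are the 15 highest and 15 lowest genes by the naming rule, and orange points are genes as high or higher in blood reference barcodes. Most points lie near 0, and many of the uppermost are orange, among them Hbb-bs and S100a9. The share of orange points over all genes was not counted.

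The ratios of the genotypes can be set side by side because they share no library. Among 6643 genes measured in both, the median size of the log2 ratio was 0.10 in mutants and 0.20 in wild type, and it was smaller in mutants for 71.1% of genes. The wild-type day 19 library had the fewest kept barcodes and the deepest ones, and whether that sets part of this difference was not tested. Across those genes Pearson's r was 0.35, a description over genes that are not independent. Of 114 genes 2-fold or more higher at day 19 in wild type, 21 were so in mutants too, 2 were 2-fold or more lower, and their median log2 ratio was 0.33 in mutants and 1.24 in wild type. Of 31 genes 2-fold or more lower in wild type, 5 were so in mutants, with medians of -0.33 and -1.36. The difference between the genotypes was not tested, with 1 library on each side.

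**Figure D2:**
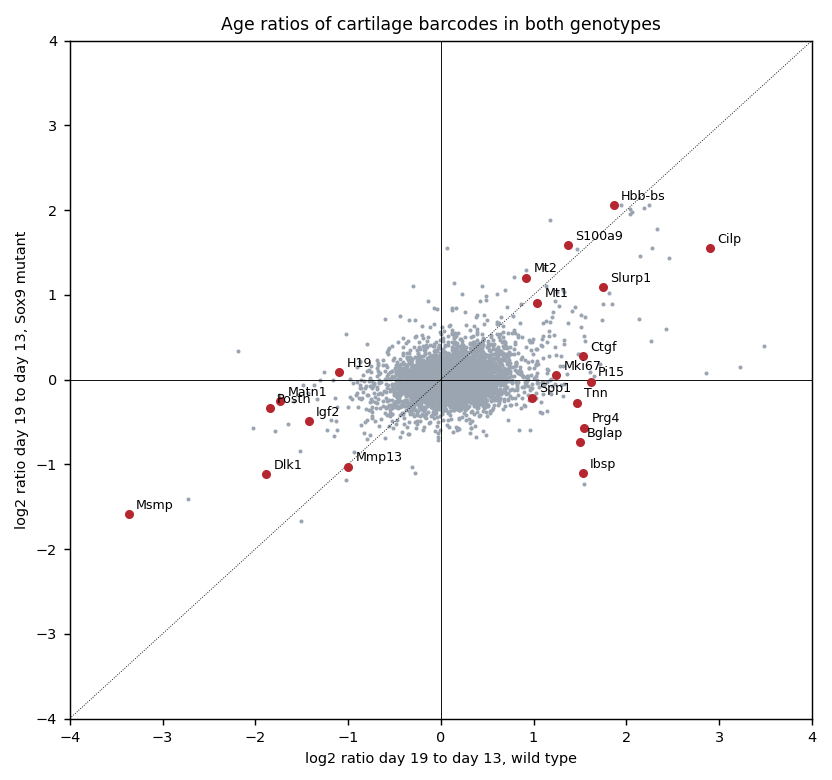
Log2 ratio of day 19 to day 13 in mutant barcodes (vertical axis) against the same ratio in wild-type barcodes (horizontal axis) for the 6643 genes measured in both, each point 1 gene and the dotted line equal ratios. Dlk1 and Msmp lie low in both genotypes, whereas Ibsp, Bglap and Prg4 lie low in mutants and high in wild type.

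Matrix Gla protein gave the largest gain in CPM among the 15 genes with the highest ratios. Mgp encodes a vitamin K-dependent protein that inhibits calcification of cartilage and vessels (chromosome 6, 136872435 to 136875823, minus strand). It was 7268 CPM at day 13 and 12339 CPM at day 19 in mutants, and 7352 and 9615 CPM in wild type. The genotypes had similar levels at day 13, and the day 19 mutant library was the highest of the 4. The ratio was 1.70-fold in mutants (log2 0.76, interval 0.76 to 0.77), with a log2 ratio of 0.39 in wild type. At 2000 UMIs a barcode, 5 or more Mgp UMIs were found in 51.0% of mutant barcodes at day 13 and 68.0% at day 19, against 2.87% and 2.25% of blood reference barcodes. The related Gla protein gene of cartilage, Ucma, was 534 and 824 CPM in mutants (log2 0.63) and 2063 and 2079 CPM in wild type (0.01).

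Both metallothionein genes, whose products bind zinc and copper, had higher levels at day 19. Mt1 was 460 and 864 CPM at days 13 and 19 in mutants and 294 and 603 CPM in wild type. Mt2 was 127 and 292 CPM in mutants and 49.5 and 93.8 CPM in wild type. Both genes stood higher at day 19 than at day 13 in each genotype, and higher in mutants than in wild type at each age. Mt2 was 2.30-fold higher at day 19 in mutants (log2 1.20, interval 1.15 to 1.26) and Mt1 1.88-fold (0.91, interval 0.88 to 0.94). In the blood reference barcodes of the mutants, Mt1 was 181 and 184 CPM and Mt2 36.4 and 51.6 CPM. After thinning, at least 1 Mt1 UMI was found in 28.1% and 39.7% of mutant barcodes, against 14.7% and 12.6% of blood reference barcodes. For Mt2 the shares were 13.8% and 24.7%, against 4.59% and 4.66%. Unthinned, they were 52.4% and 61.2% of mutant barcodes for Mt1 and 31.4% and 44.7% for Mt2.

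The promoters of the metallothionein pair are shown because these genes are neighbours on chromosome 8 and had like ratios. They are the 250 bases before the RefSeq start on GRCm38.p6, at chr8:94178839-94179088 for Mt1 and chr8:94172368-94172617 for Mt2, both on the plus strand. Capitals mark matches, on either strand, to the core of the metal response element, searched as TGCACNC or TGCGCNC.
Mt1: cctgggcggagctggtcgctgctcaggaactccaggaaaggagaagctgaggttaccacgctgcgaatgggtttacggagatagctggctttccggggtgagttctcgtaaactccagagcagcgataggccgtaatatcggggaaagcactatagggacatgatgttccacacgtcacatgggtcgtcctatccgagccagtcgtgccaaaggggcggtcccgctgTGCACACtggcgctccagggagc
Mt2: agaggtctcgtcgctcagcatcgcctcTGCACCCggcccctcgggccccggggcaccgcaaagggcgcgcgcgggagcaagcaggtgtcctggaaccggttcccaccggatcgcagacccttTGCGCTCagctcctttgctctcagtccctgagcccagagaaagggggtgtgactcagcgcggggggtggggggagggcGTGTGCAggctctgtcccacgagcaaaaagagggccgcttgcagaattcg
The Mt1 window held 1 match, 23 to 17 bases before the start, and the Mt2 window held 3, which begin 223, 128 and 50 bases before it. Of 32851 RefSeq promoters cut to the same length, 21.4% held at least 1 match and 1.26% held at least 3. A match describes letters only. The windows hang on the RefSeq start used. That of Mt1 ends past the GENCODE gene start (94179082), and that of Mt2 ends before its own (94172664). The counts hold for these windows alone and do not give the number of elements at either gene.

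Among the other genes with the highest ratios were secreted proteins of cartilage. Cilp, cartilage intermediate layer protein, was 19.97 and 58.5 CPM at days 13 and 19 in mutants and 8.53 and 63.8 CPM in wild type, 2.93-fold higher at day 19 in mutants. Cytl1, a small secreted protein of chondrocytes, was 36.8 and 91.9 CPM in mutants and 56.3 and 122 CPM in wild type, 2.50-fold higher in mutants. Day 19 was the higher age for both genes in both genotypes. These genes came from few barcodes. The richest 5% of day 19 mutant barcodes held 96.6% of Cilp UMIs and 91.2% of Cytl1 UMIs. For Prelp, a small leucine-rich proteoglycan that anchors matrix to cells, the levels were 77.2 and 126 CPM in mutants and 559 and 792 CPM in wild type. Arsi, an arylsulfatase gene, was 43.7 and 83.3 CPM in mutants, and Meltf, which encodes an iron-binding membrane protein, 33.5 and 60.3 CPM.

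A clotting gene and a protease inhibitor gene were also among the 15. F3, tissue factor, the starter of coagulation, was 54.9 and 114 CPM in mutants (2.08-fold) and 41.8 and 67.8 CPM in wild type. Serpina3n, a serine protease inhibitor of the acute phase response, was 30.2 and 65.2 CPM in mutants (2.16-fold) and 37.1 and 50.6 CPM in wild type. The log2 ratio was larger in mutants than in wild type for F3 (1.05 and 0.70) and for Serpina3n (1.11 and 0.45). Both were lower in the blood reference barcodes than in the kept barcodes of both mutant libraries.

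Slurp1, a secreted protein of the Ly6 family, was found almost entirely in the mutant libraries. It was 113 and 241 CPM at days 13 and 19 in mutants and 0.608 and 2.04 CPM in wild type. Its ratio in mutants was 2.13-fold (log2 1.09, interval 1.03 to 1.15), and the richest 5% of barcodes held 91.3% and 87.3% of its UMIs. M1ap was 26.4 and 53.7 CPM in mutants (2.03-fold) and 46.0 and 162 CPM in wild type. R3hdml was 64.8 and 120 CPM in mutants, and Ncmap 32.3 and 57.3 CPM.

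**Figure D3:**
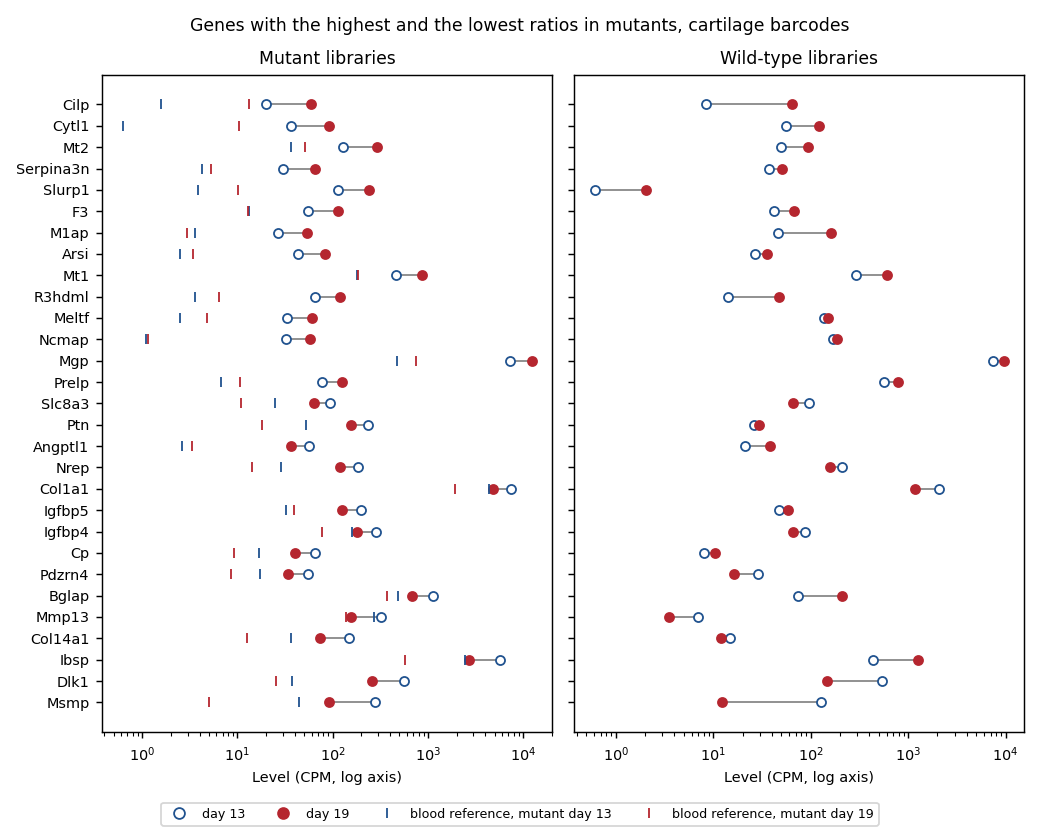
Levels in CPM (horizontal log axes) of genes with the highest and the lowest mutant ratios by the naming rule, ordered by that ratio, in the mutant (left) and wild-type (right) libraries, with open circles for day 13 and filled circles for day 19. Vertical ticks on the left give the same genes in the blood reference barcodes of the mutants. For Mmp13 the ticks lie close to the circles, and for Ibsp and Bglap the wild-type order of the ages is the opposite of the mutant order.

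Genes of mineralizing and hypertrophic cells were among the lowest ratios in mutants. Ibsp, bone sialoprotein of mineralizing matrix (chromosome 5, 104299171 to 104311469, plus strand), was 5764 CPM at day 13 and 2687 CPM at day 19 in mutants. In wild type it was 434 and 1255 CPM. The mutant libraries were the higher at both ages, and the gap was narrower at day 19. Ibsp was 2.15-fold lower at day 19 in mutants (log2 -1.10, interval -1.11 to -1.09), with a log2 ratio of 1.53 in wild type. In the blood reference barcodes of the mutants it was 2449 and 573 CPM, a log2 ratio of -2.10. After thinning, at least 1 Ibsp UMI was found in 51.8% of mutant barcodes at day 13, which is the background share (51.4% of blood reference barcodes), and in 33.4% and 21.0% at day 19. At 5 or more UMIs the shares were 18.5% and 13.5% of mutant barcodes, against 3.33% and 1.5%. Unthinned, 89.3% and 62.1% of mutant barcodes had an Ibsp UMI.

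Mmp13, a collagenase that cleaves collagen II (chromosome 9, 7272514 to 7283331, plus strand), was 318 and 156 CPM at days 13 and 19 in mutants and 7.04 and 3.53 CPM in wild type. It was 2.04-fold lower at day 19 in mutants (log2 -1.03), and the wild-type log2 ratio was -0.998. The blood reference barcodes of the mutants held 271 and 138 CPM, nearly the level of the kept barcodes. The richest 5% of kept barcodes held 80.0% of Mmp13 UMIs at day 13 and 85.0% at day 19. Bglap, osteocalcin (chromosome 3, 88383501 to 88384464, minus strand), was 1129 and 678 CPM in mutants (log2 -0.74) and 74.3 and 210 CPM in wild type (1.5). Its reads can be split with the near-identical Bglap2 and Bglap3, so its level is uncertain.

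The promoters of these 3 genes are shown because the genes are used by mineralizing cells and were all lower at day 19 in mutants. They are again the 250 bases before the RefSeq start on GRCm38.p6, with capitals for the RUNX core TGTGGT on either strand. Ibsp lies at chr5:104299037-104299286 (plus), Mmp13 at chr9:7272264-7272513 (plus) and Bglap at chr3:88384467-88384716 (minus).
Mmp13: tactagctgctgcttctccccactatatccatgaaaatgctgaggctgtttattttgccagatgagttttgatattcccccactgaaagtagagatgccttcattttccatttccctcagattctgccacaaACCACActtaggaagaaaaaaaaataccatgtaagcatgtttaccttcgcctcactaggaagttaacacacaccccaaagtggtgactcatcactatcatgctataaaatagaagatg
Bglap: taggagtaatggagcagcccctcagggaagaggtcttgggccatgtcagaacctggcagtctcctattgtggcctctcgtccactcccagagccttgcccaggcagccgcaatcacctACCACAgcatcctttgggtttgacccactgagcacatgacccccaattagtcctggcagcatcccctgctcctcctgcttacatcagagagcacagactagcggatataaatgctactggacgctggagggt
Ibsp: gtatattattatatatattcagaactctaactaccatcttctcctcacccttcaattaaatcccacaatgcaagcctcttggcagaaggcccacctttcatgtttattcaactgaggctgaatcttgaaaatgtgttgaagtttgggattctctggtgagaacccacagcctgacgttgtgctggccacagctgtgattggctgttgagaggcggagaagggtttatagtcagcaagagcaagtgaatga
The Mmp13 match began 118 bases before the start and the Bglap match 132 bases before it. These letters were not found in the Ibsp window. Of the RefSeq promoters of this length, 14.0% held at least 1 match.

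In the wider hypertrophy list of 12 measured members, 8 had log2 ratios below 0 in mutants and 4 above it. Ibsp and Mmp13 were 2-fold or more lower at day 19, beside 0.206% of all measured genes, and none was 2-fold higher. The summed level was 10279 and 6531 CPM. The median log2 ratio was -0.24 in mutants and -0.02 in wild type, beside -0.02 and 0.13 over all measured genes. In the blood reference barcodes of the mutants 11 of the 12 were lower at day 19, with a median of -1.07. Such a fall there was not particular to lists that fell in the kept barcodes. All 6 genes of collagens IX, XI and XXVII (median -0.65) fell there, as did 13 of 14 aggrecan, link protein and leucine-rich protein genes (-0.40). Of 20 S phase and mitosis genes only 6 did (median 0.08). The blood reference median over all genes was not taken. The mutant median was -0.57 in barcodes with Col2a1 between 100 and 200 per 10000 and -0.09 at 400 or more. Col10a1, the collagen that defines hypertrophic chondrocytes, was 532 and 541 CPM (log2 0.02), and in wild type its log2 ratio was -0.77. Spp1, osteopontin, was 1650 and 1421 CPM (log2 -0.22, and 0.98 in wild type). Alpl, the phosphatase that frees phosphate for mineral, was 647 and 546 CPM, and Runx2, the transcription factor of hypertrophy and bone, 71.3 and 54.2 CPM. Mef2c, another activator of hypertrophy, was 259 and 183 CPM. Runx3, a relative of Runx2, was on the other side at 16.4 and 29.6 CPM (log2 0.85), beside 27.5 and 26.3 CPM in the blood reference barcodes.

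All 6 measured osteoblast and osteocyte genes had log2 ratios below 0 in mutants, with a median of -0.53 against -0.36 for the same genes in wild type. In the blood reference barcodes of the mutants all 6 were lower at day 19 too, with a median of -1.32. Only Ifitm5, a gene of osteoblasts, was 2-fold lower (44.4 and 21.7 CPM), beside 0.206% of all measured genes. It was at 55.7 and 18.1 CPM in the blood reference barcodes. Mepe, of osteocytes, was 28.2 and 16.6 CPM over all kept barcodes but 13.8 and 24.0 CPM among those with Col2a1 at 400 per 10000 or more, the opposite order. Sp7, the osteoblast transcription factor osterix, was 26.2 and 21.0 CPM. The sum of the osteoblast marker list, which includes Col1a1, was 8593 and 5503 CPM in the kept mutant barcodes and 4935 and 2314 CPM in the blood reference barcodes.

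Of 16 measured fibrous matrix genes, 11 had log2 ratios below 0 in mutants and 5 above it. In the blood reference barcodes all 16 were lower at day 19, with a median of -0.65. Col14a1, a collagen that sits on collagen I fibrils, was 150 and 73.2 CPM in mutants, 2.04-fold lower at day 19 (log2 -1.03, interval -1.11 to -0.95), and 14.8 and 11.9 CPM in wild type. Col1a1 (chromosome 11, 94936224 to 94953042, plus strand) was 7384 and 4777 CPM in mutants and 2090 and 1174 CPM in wild type, with log2 ratios of -0.63 and -0.83. Col1a1 was 4354 and 1914 CPM in the blood reference barcodes of the mutants. Col3a1 was 1452 and 1123 CPM. The collagen VI genes Col6a1 (1201 and 1305 CPM), Col6a2 (952 and 1042 CPM) and Col6a3 (757 and 869 CPM) were on the other side, as was Fn1, fibronectin (1831 and 1998 CPM). Col14a1 was the only member of the list to reach 2-fold, beside 0.206% of all measured genes 2-fold or more lower in mutants. The list median was -0.08 in mutants and 0.10 in wild type.

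Dlk1 had the lowest ratio among the imprinted growth genes. Dlk1, an imprinted gene for a membrane protein of the Notch ligand family (chromosome 12, 109452823 to 109463336, plus strand), was 560 and 258 CPM at days 13 and 19 in mutants and 545 and 148 CPM in wild type. The genotypes were close at day 13, and wild type was the lower at day 19. Dlk1 was 2.17-fold lower at day 19 in mutants (log2 -1.12, interval -1.16 to -1.08), with -1.88 in wild type. At least 1 Dlk1 UMI of 2000 was found in 42.4% and 24.9% of mutant barcodes, against 6.77% and 2.45% of blood reference barcodes (unthinned mutant shares 69.2% and 43.4%).

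Of 15 measured imprinted genes of the perinatal growth network, Dlk1 was the only one 2-fold lower in mutants, and none was 2-fold higher. Over all measured genes in mutants these shares were 0.206% and 0.576%. The log2 ratio was below 0 in 13 of them. In the blood reference barcodes of the mutants it was below 0 in all 15, with a median of -0.94. The list median was -0.20 in mutants and -0.63 in wild type. In wild type 3 members were 2-fold or more lower, beside 0.535% of all genes measured there. H19, the maternally expressed long RNA next to Igf2, was 1170 and 1244 CPM in mutants and 1358 and 637 CPM in wild type. Igf2, a fetal growth factor, was 67.2 and 47.9 CPM in mutants and 76.6 and 28.6 CPM in wild type. The day 19 wild-type library was the lowest of the 4 for both genes. Meg3, an imprinted RNA of the Dlk1 locus, had log2 ratios of -0.20 in mutants and -0.71 in wild type, and Cdkn1c, a growth-restraining inhibitor of the cell cycle, -0.28 and -0.69. Igf2bp2, the only measured member of 6 further fetal growth regulators, was 24.4 and 21.0 CPM in mutants.

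Igfbp4 and Igfbp5, which encode IGF-binding proteins, were among the genes with the lowest ratios. Of the 9 measured genes of the IGF axis, 5 had log2 ratios below 0 in mutants and 4 above it, with a median of -0.11 (-0.10 in wild type) and 0 at 2-fold. Igfbp4 was 286 and 179 CPM in mutants (log2 -0.68), and 158 and 76.3 CPM in the blood reference barcodes. Igfbp5 was 196 and 126 CPM (log2 -0.64), against 47.3 and 59.0 CPM in wild type. Among barcodes with Col2a1 at 400 per 10000 or more, Igfbp5 was 103 and 112 CPM (log2 0.11, interval -0.01 to 0.24). The growth factor gene Ptn, pleiotrophin, was 232 and 154 CPM in mutants and 26.2 and 29.6 CPM in wild type. Cp, ceruloplasmin, the copper-carrying oxidase, was 64.4 and 40.3 CPM in mutants, and Nrep 185 and 121 CPM. Angptl1, an angiopoietin-like secreted protein, was 55.9 and 36.9 CPM in mutants and 21.4 and 38.4 CPM in wild type. Pdzrn4 was 55.1 and 33.8 CPM in mutants, and Slc8a3, a sodium-calcium exchanger, 93.7 and 62.9 CPM.

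Msmp, microseminoprotein, had the lowest mutant ratio by the naming rule. It was 276 and 92.0 CPM in mutants (3.00-fold lower, log2 -1.59) and 128 and 12.4 CPM in wild type (log2 -3.36). Few barcodes carried it: the richest 5% held 97.6% of its UMIs at day 13. At day 19 only 4.17% of mutant barcodes had an Msmp UMI, so there the richest 5% hold 100% by definition. After thinning, at least 1 UMI was found in 3.69% and 1.52% of mutant barcodes and in 4.59% and 1.05% of blood reference barcodes. This share is thus not above background at day 13 and is close to it at day 19 (unthinned mutant shares 13.2% and 4.17%). Among mutant barcodes with Col2a1 at 400 per 10000 or more, Msmp was 30.7 and 44.8 CPM, the opposite direction.

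The cartilage matrix genes themselves lay close to their day 13 levels. Of 6 collagen genes of types IX, XI and XXVII, none reached 2-fold, and all 6 had log2 ratios above 0 in mutants, from 0.02 to 0.22, while in wild type all 6 were below 0. Within barcodes of Col2a1 between 100 and 200 per 10000 the mutant list median was instead -0.17. Col9a1 was below 0 in each Col2a1 range, at -0.18 (100 to 200), -0.04 (200 to 400) and -0.04 (400 or more). At 400 or more, Col9a3 (-0.04) and Col11a1 (-0.06) were below 0 as well. Between 200 and 400, Col9a3 (0.13) and Col11a2 (0.12) were above it. The direction over all kept barcodes thus did not hold within every range. Col9a3 was 2163 and 2449 CPM and Col11a2 was 1434 and 1667 CPM in mutants. Acan was 1091 and 1304 CPM in mutants (log2 0.26, interval 0.24 to 0.28) and 4337 and 4248 CPM in wild type (-0.03). Of 14 aggrecan, link protein and leucine-rich protein genes, none reached 2-fold, and their median was 0.19 in mutants and -0.02 in wild type. Within barcodes of Col2a1 at 400 per 10000 or more, a larger share of the kept barcodes at day 19, the mutant median was -0.01. Chadl, a collagen-binding leucine-rich protein, was 194 and 275 CPM in mutants. Dcn, decorin, was 2457 and 1973 CPM, and Epyc, epiphycan of the growth plate, 340 and 280 CPM.

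Adaptor proteins of the matrix divided. Matn3, a cartilage matrilin, was 286 and 444 CPM in mutants (log2 0.63) and 1303 and 1387 CPM in wild type, and Comp, which joins collagen fibrils, was 5815 and 7531 CPM in mutants (0.37). Matn1, another matrilin, was 285 and 239 CPM in mutants and 1917 and 578 CPM in wild type, log2 ratios of -0.25 and -1.73. The 11 measured genes of sulfate and chondroitin sulfate synthesis had a median of 0.19 in mutants and 0.22 in wild type, with 0 at 2-fold either way. Chst11, a chondroitin sulfotransferase, was 77.0 and 107 CPM in mutants, and Slc26a2, the sulfate transporter, 48.8 and 66.4 CPM.

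The kept barcodes were chosen on Col2a1, so its own level is a description. It was 34128 and 39986 CPM in mutants, with medians of 237 and 295 UMIs per 10000 a barcode. The share of kept barcodes with 400 or more per 10000 was 27.4% at day 13 and 37.1% at day 19, and the share between 100 and 200 was 40.9% and 32.3%. Barcodes just inside the limit (100 to 110) numbered 154 and 84, with Acan at 861 and 896 CPM and Col1a1 at 8030 and 4325 CPM. Those just outside it (90 to 100) numbered 181 and 98, with Acan at 868 and 915 CPM and Col1a1 at 9545 and 9030 CPM.

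Several ratios differed between ranges of Col2a1, which were chosen after seeing the data. From the lowest range (100 to 200) through the middle (200 to 400) to the highest (400 and over), the log2 ratio of Ibsp was -1.17, -0.94 and -0.52. That of Cilp was 0.83, 1.88 and 2.93, and that of Slurp1 was 1.90, 0.89 and 0.58. Mgp gave 0.48, 0.90 and 0.67 and Dlk1 gave -0.69, -1.57 and -1.18, so these genes kept their side of 0 in every range. Mt2 gave 1.66, 0.79 and 1.35. Matn3 gave 0.05, 0.70 and 0.26, and its level in the lowest range was 69.7 and 72.3 CPM against 649 and 780 CPM in the highest. Of 168 named genes other than Col2a1, 15 had in at least 1 range a counting interval wholly on the other side of 0 from the ratio over all kept barcodes.

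**Figure D4:**
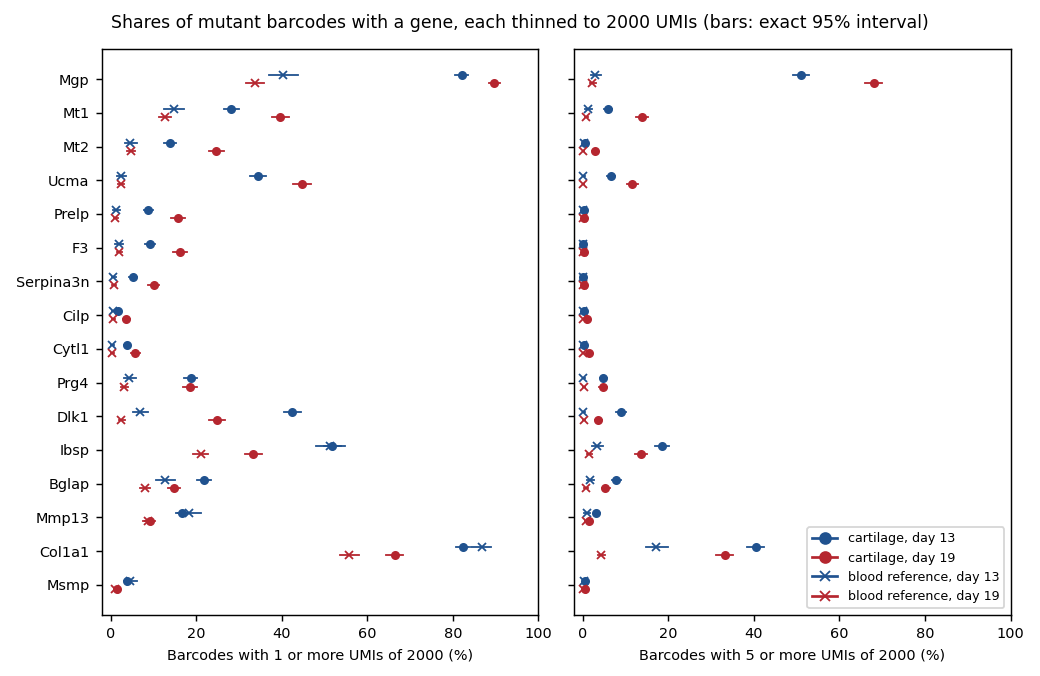
Percentage of mutant barcodes (horizontal axes) with 1 or more (left) and 5 or more (right) UMIs of each gene after thinning to 2000 UMIs, circles for kept cartilage barcodes and crosses for blood reference barcodes, blue for day 13 and red for day 19, with exact 95% intervals as bars. Mgp and the metallothioneins lie well to the right of their blood reference, whereas at 1 UMI Ibsp at day 13, Mmp13 at both ages and Col1a1 at day 13 lie close to or below it.

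Superficial zone genes of articular cartilage had a median log2 ratio of -0.04 in mutants and 0.69 in wild type over the 9 measured. Prg4, lubricin, which lubricates the joint surface, was 457 and 309 CPM at days 13 and 19 in mutants (log2 -0.57) and 672 and 1962 CPM in wild type (1.55). The day 19 wild-type library stood apart from the other three. After thinning, 18.7% and 18.4% of mutant barcodes had at least 1 Prg4 UMI, and 14.9% and 23.8% of wild-type barcodes (unthinned 35.4%, 32.4%, 31.3% and 37.3%). The richest 5% of mutant barcodes held 81.0% of Prg4 UMIs at day 13 and 69.0% at day 19. Without barcodes with Prg4 at 20 per 10000 or more, the mutant log2 ratio was 0.11. Creb5, a transcription factor of the superficial zone, was 36.5 and 27.8 CPM in mutants and 15.1 and 32.1 CPM in wild type. Cilp was the only member 2-fold higher in mutants, beside 0.576% of all measured genes, and its wild-type log2 ratio was 2.90.

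Cell cycle genes were level with age in mutants. Of 20 genes of S phase and mitosis, none reached 2-fold, and the median log2 ratio was 0.02. In wild type all 20 were above 0, with a median of 0.91. Of them, 7 were 2-fold or more higher, beside 2.05% of all genes measured in wild type. All 20 were as high or higher in the blood reference barcodes of at least 1 mutant library, a share that was not counted over all measured genes. Cenpf, a kinetochore protein, was 43.7 and 33.6 CPM in mutants and 26.9 and 56.6 CPM in wild type, and Ube2c, a ubiquitin ligase partner in mitosis, 50.8 and 59.2 CPM in mutants and 52.9 and 109 CPM in wild type.

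**Figure D5:**
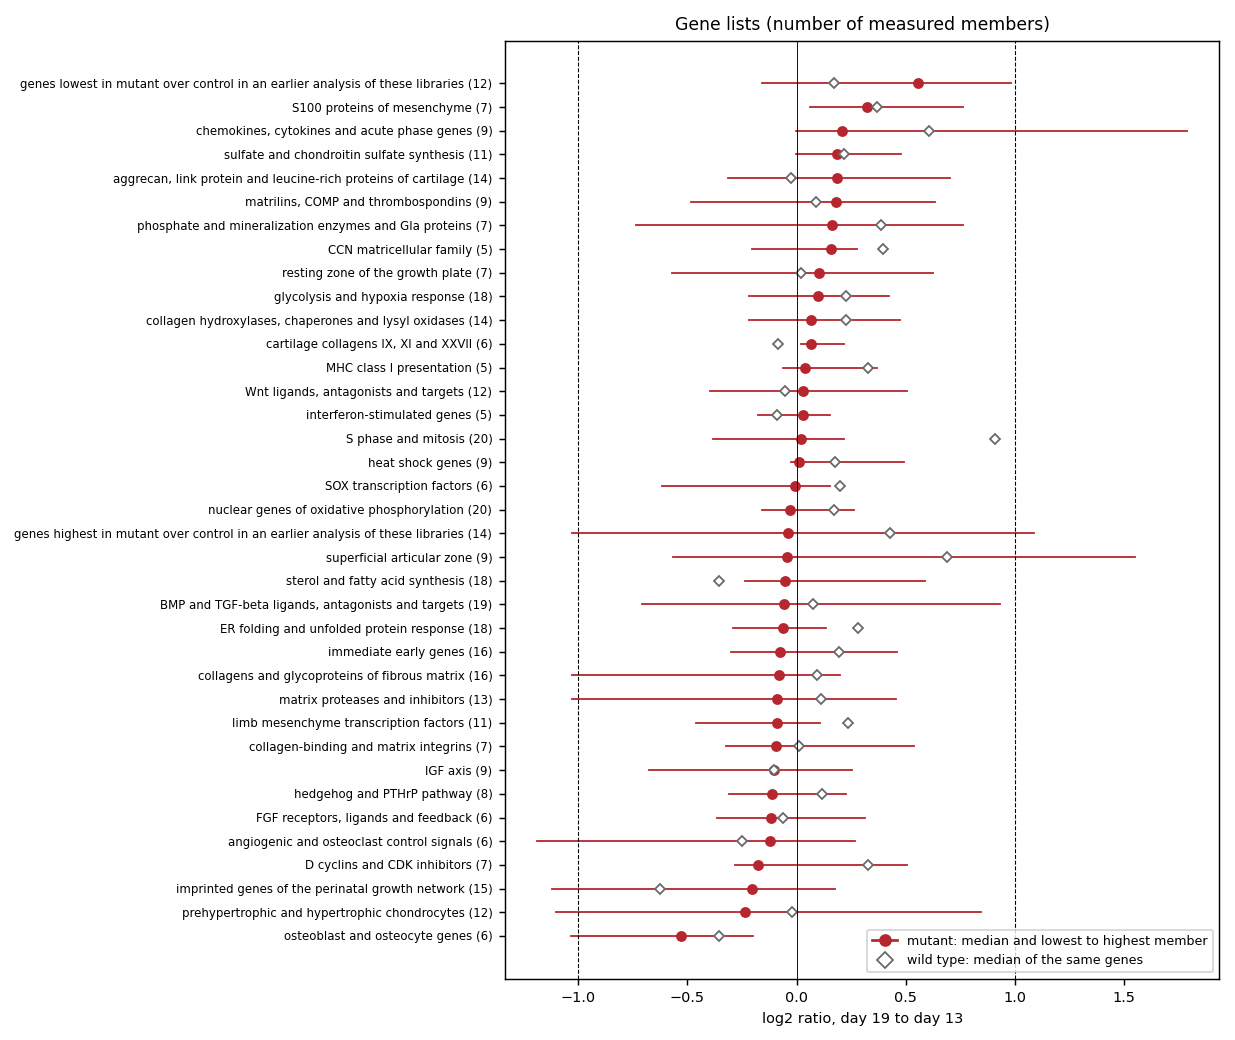
Median log2 ratio of day 19 to day 13 (horizontal axis) for each pathway list with 3 or more measured members (number in brackets), red circles for mutants with bars from the lowest to the highest member, and open diamonds for the same genes in wild type. Lists of cell type markers are not drawn. Mutant medians of the lists drawn lie between -0.53 and 0.56, and the wild-type median of S phase and mitosis genes, at 0.91, lies far from the mutant one.

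Endoplasmic reticulum folding genes, which serve secretion, had a median of -0.06 in mutants and 0.28 in wild type, with 0 of 18 at 2-fold in mutants. Pdia3, a disulfide isomerase, was 396 and 323 CPM in mutants and 254 and 430 CPM in wild type. Genes of glycolysis and the hypoxia response had a median of 0.10 over 18 measured. Slc2a1, the glucose transporter, was 81.0 and 109 CPM in mutants, and the hexokinase gene Hk2 132 and 173 CPM. Genes of sterol and fatty acid synthesis had a median of -0.05 in mutants and -0.35 in wild type.

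Signalling lists showed few large ratios. In the hedgehog and PTHrP pathway, which paces hypertrophy, Ihh, the ligand, was 74.0 and 86.6 CPM in mutants. In barcodes with Col2a1 between 100 and 200 per 10000 it was 30.0 and 16.2 CPM (log2 -0.89, interval -1.20 to -0.59), the opposite order. Ptch1, its receptor and target, was 89.6 and 72.3 CPM. Pth1r, the receptor for PTHrP, was 815 and 697 CPM. None of the 8 measured members reached 2-fold. Among 19 BMP and TGF-beta genes none reached 2-fold, and Bmp7, a ligand, was 5.36 and 10.2 CPM while Gdf10 was 16.4 and 10.1 CPM. Of the FGF receptors, Fgfr3, which restrains chondrocyte division, was 67.2 and 83.6 CPM and Fgfr1 was 201 and 156 CPM. Ctgf, a matricellular protein, was 480 and 581 CPM in mutants and 139 and 403 CPM in wild type. Of the 12 measured Wnt genes, none reached 2-fold, and the median was 0.03.

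Of 9 measured chemokine, cytokine and acute phase genes, Cxcl2 and Lcn2 were 2-fold higher at day 19 in mutants, beside 0.576% of all measured genes, and both were far higher in the blood reference barcodes. Lcn2, lipocalin 2, an iron-siderophore binder of neutrophils, was 37.8 and 103 CPM in kept and 1457 and 2428 CPM in blood reference barcodes. Cxcl1, a neutrophil chemokine, was 56.7 and 89.2 CPM in mutants and 16.2 and 12.6 CPM in the blood reference. The list median was 0.21 in mutants and 0.61 in wild type. Interferon-stimulated genes had a median of 0.03 over 5 measured. The 7 S100 genes of mesenchyme all had ratios above 0 in mutants, with a median of 0.32 and 0 at 2-fold. S100a4 was 99.8 and 169 CPM, but 462 and 402 CPM in the blood reference barcodes.

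Some of the lists were drawn from the contrast of mutant and wild type in these same libraries, so their direction here is not independent evidence. Of the 12 measured genes that had been lowest in mutants over wild type, 11 had log2 ratios above 0 in mutants, with a median of 0.56, against 0.17 in wild type, and 0 reached 2-fold. Car12, a carbonic anhydrase, was 7.44 and 14.7 CPM in mutants and 56.7 and 79.7 CPM in wild type. Fxyd2, which modulates the sodium pump, was 22.8 and 39.9 CPM in mutants and 124 and 329 CPM in wild type. The mutant level stayed below wild type at both ages for each of these. Of the 14 genes that had been highest in mutants, Slurp1 was 2-fold higher and Mmp13 2-fold lower at day 19. Over all measured genes these shares were 0.576% and 0.206%. The list median was -0.04 in mutants and 0.43 in wild type. Myoc was 197 and 268 CPM, Pi15 was 70.4 and 69.2 CPM and Tnn, tenascin-N, was 71.5 and 59.2 CPM in mutants. In wild type, Pi15 and Tnn were between 1.17 and 4.57 CPM.

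Some further genes had a mutant log2 ratio well above or below that of wild type. Penk, the enkephalin precursor, was 204 and 256 CPM in mutants and 149 and 99.4 CPM in wild type. Fabp4, a fatty acid binding protein, was 45.2 and 56.1 CPM in mutants and 8.07 and 4.67 CPM in wild type. Sulf2, which removes sulfate from heparan sulfate, was 159 and 123 CPM in mutants and 33.1 and 73.3 CPM in wild type. For each of these 3 the genotypes had opposite orders of the ages, and the difference was not tested.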

How the data were processed

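Tibial and femoral epiphyses were digested with Liberase and captured with Chromium version 3 chemistry, per the labels' protocols. The authors deposited whole UMI counts for each gene in each barcode, made with Cell Ranger (3.1.0 per the file headers) on mm10, per the submitters' processing notes, which also name Seurat 3. Each library held 70507107 to 76080803 UMIs. The members and gene lists were chosen with earlier results of these data known.

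Counts were summed over kept barcodes and given as CPM (Python 3.11.15). Genes at 10 CPM or more in 1 of the 2 libraries were measured, and the call was a 2-fold ratio. For a ratio, 0 UMIs in a library were replaced by 3. Intervals of ratios are exact conditional binomial (95%) and those of shares Clopper-Pearson, and reads of 1 molecule are counted once. The naming rule took Sox9, Sox5, Sox6, Sox8, Acan and Col2a1, and the 15 highest and 15 lowest ratios among genes at 50 CPM or more. It left out mitochondrial, ribosomal, haemoglobin, sex-linked and unnamed genes and genes as high in blood reference barcodes. It added up to 4 members of each of 39 lists, and the 6 genes each way by mutant minus wild-type log2 ratio. One gene that the rule names is not reported here. Other list members were named to show how a list divides. Doublets were not called. Thinning left out 82 and 75 kept mutant, 218 and 24 kept wild-type and 237 and 663 mutant blood reference barcodes at days 13 and 19. Scaling by TMM (edgeR 4.0.16) and by median of ratios (DESeq2 1.42.0) was an alternative. The ratio calculation was tested on simulated data. Identifiers and coordinates are from GENCODE M21, which held 30934 of 31053 features. Of the listed genes, Aldoa could not be matched. The promoters are from RefSeq (GRCm38.p6), counted from 1.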

Additional observations from a re-analysis of the deposited data

Results flagged for a closer look

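In 3 named genes the ages stood in opposite order in the genotypes and the log2 ratio of day 19 to day 13 differed by 2 or more, with counting intervals on opposite sides of 0. For Ibsp the mutant ratio minus the wild-type ratio was -2.63, from -1.10 in mutants and 1.53 in wild type. For Bglap the difference was -2.24, from -0.74 and 1.5. For Prg4 it was -2.11, from -0.57 and 1.55. Without the barcodes rich in Prg4, by the limit given above, the mutant log2 ratio of Prg4 was 0.11. The mutant order of the ages for Prg4 thus depended on those barcodes. With 1 library for each genotype and age, the differences between the genotypes were not tested. Of 6643 genes measured in both genotypes, 846 (12.7%) had intervals on opposite sides of 0 at any size. Of 169 named genes 54 (32.0%) did, but some of these were named for their difference between the genotypes.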

How the results depend on the processing

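No paired analysis was possible because each genotype and age is 1 library. Without a filter on low levels, 820 genes were 2-fold or more higher and 770 lower at day 19 in mutants, and with a minimum of 50 CPM 18 and 5 were. A threshold of 1.5-fold, chosen after seeing the data, gave 113 (1.55%) and 69 (0.946%). Thinning to 2000 UMIs gave 27 lower genes. In the Col2a1 ranges, also chosen after seeing the data, 64 genes were higher between 200 and 400 per 10000, and 9 were lower at 400 or more. All other settings gave 29 to 50 higher and 11 to 22 lower genes. The log2 ratio of Sox9 was -0.21 after thinning, -0.27 as a mean over barcodes, -0.094 at Col2a1 100 to 200 and -0.25 at 200 to 400. Msmp was 0.55 at Col2a1 400 or more, the opposite direction. The 15 other named genes at 2-fold or more, and Msmp at other settings, kept their direction. Their size was less stable: of 272 values of these 16 genes, 110 moved outside the main counting interval and 161 did not. Cytl1 was 0.74 without barcodes with Prg4 at 20 per 10000 or more. At Col2a1 400 or more, M1ap was 0.51, Slurp1 0.58 and Mmp13 -0.59, all under 2-fold. Outside the Col2a1 ranges, changes of direction were not counted for genes under 2-fold. Among those genes, Prg4 was -0.57 over all kept barcodes. It was 0.11 without barcodes with Prg4 at 20 per 10000 or more, the opposite direction. TMM and median-of-ratios scaling moved every log2 ratio by 0.01 and 0.02. The cause of these shifts was not tested. Depth limits genes near 10 CPM and those carried by few barcodes.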

Other observations

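A list of 18 glucocorticoid-responsive genes was added after values had been seen, so its direction is a description. Mt2 and Serpina3n were by then known to be among the highest ratios. Lcn2 is also in the chemokine, cytokine and acute phase list above, where it was called. Of the 16 measured, 5 were 2-fold or more higher at day 19 in mutants (Fkbp5, Mt2, Lcn2, Saa2 and Serpina3n), beside 0.576% of all measured genes. By 2-fold 0 were lower, and 14 had ratios above 0. Saa2, at 1.62 and 11.6 CPM in mutants, met the 10 CPM limit only at day 19. With values known when the list was made, the count beside that share is no result about these genes. The median log2 ratio was 0.30 in mutants, 0.62 in wild type and 0.19 in the blood reference barcodes of the mutants. Fkbp5, a chaperone of the glucocorticoid receptor, was 13.5 and 31.4 CPM at days 13 and 19 in mutants and 14.8 and 25.9 CPM in their blood reference barcodes. Lcn2 was far higher in the blood reference, at 1457 and 2428 CPM.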
